A study of Mus musculus with 19 samples.

Results

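Gse1 was examined as a single locus in mouse liver, through the CpG sites that the authors' tables list between 2 kb before the gene and 2 kb after it. Members were all listed sites on chromosome 8 between positions 120226501 and 120583383 (mm10). There were 33 of them, of the 8525 distinct sites listed in any of the 3 tables. The gene was selected on its number of listed sites and their differences in these same tables, so both are given as descriptions with no test. The RefSeq table (GRCm38.p6, whose chromosome positions are those of mm10) places the gene (gene ID 382034) at 120228501 to 120581383, a length of 352.9 kb, on the plus strand. Exons and introns were not distinguished, since the table used gives gene spans only.

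The assay was reduced-representation bisulfite sequencing. It reads the methylation of cytosines near restriction sites, here those of MspI and TaqαI. Livers came from 19 mice aged 10 months. They were 8 MAT1A WT mice with no treatment, 6 MAT1A KO mice on placebo and 5 MAT1A KO mice on SAMe supplementation, treated for 8 weeks according to the series title. WT mice received no placebo, so each comparison with WT changes the genotype and the treatment procedure together. Strain, sex and the way the knockout was made are not given in the sources used here, nor is anything on litters. Mat1a, the liver enzyme gene that makes SAMe, had 0 listed sites in each table, and these data hold no measurement that checks the knockout.

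Gse1 (genetic suppressor element 1) encodes a coiled-coil protein found with histone deacetylases and the histone demethylase Kdm1a in complexes of the CoREST family. These complexes remove acetyl and methyl groups from histones at genes to which DNA-binding repressors recruit them. CpG methylation is made with SAMe as the methyl donor, and in mammals it is usually high in gene bodies and low at CpG-rich starts. None of this was measured here beyond the group differences in methylation.

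Each table gives, per CpG site, the difference in methylation between 2 groups in percentage points with a p-value and a q-value, and lists only sites past the authors' thresholds. No table gives a methylation level, read depth or value for a single animal. No value below therefore has an SD over animals, and the depth is unknown. The subtraction order is not stated. Differences are taken here as the later-named group minus the earlier one, so that negative values mean lower methylation in the KO group, and every direction below would turn round together under the opposite order. A site that is missing from a table either did not pass or was not covered.

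RefSeq gives 3 start windows for Gse1 on the plus strand, each from 250 bases before a transcription start to 50 after it. They are shown because 0 listed sites of any table fell inside them, although they hold CpG sites and cut sites of the enzymes used. Capitals mark CCGG (cut by MspI) and TCGA (cut by TaqαI), motifs that read the same on both strands and cannot overlap each other. The annotated 5′ end of the gene at 120228501 lies 260.4 kb before the first of these starts. It has no window among the 3, so the windows do not cover it. The windows, on GRCm38.p6, are chr8:120488616-120488915, chr8:120535607-120535906 and chr8:120537159-120537458, in this order.
Gse1 start 1: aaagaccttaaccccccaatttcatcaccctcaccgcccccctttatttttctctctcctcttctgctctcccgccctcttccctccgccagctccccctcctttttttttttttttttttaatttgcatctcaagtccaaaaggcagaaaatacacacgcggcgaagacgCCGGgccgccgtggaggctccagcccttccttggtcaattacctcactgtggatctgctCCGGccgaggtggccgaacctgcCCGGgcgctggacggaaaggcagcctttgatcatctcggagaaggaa
Gse1 start 2: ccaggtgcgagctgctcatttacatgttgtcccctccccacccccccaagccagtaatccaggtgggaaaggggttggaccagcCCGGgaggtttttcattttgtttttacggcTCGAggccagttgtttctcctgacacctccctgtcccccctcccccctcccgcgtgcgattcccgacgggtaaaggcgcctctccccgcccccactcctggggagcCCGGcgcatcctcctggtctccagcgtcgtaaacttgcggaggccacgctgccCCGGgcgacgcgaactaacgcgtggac
Gse1 start 3: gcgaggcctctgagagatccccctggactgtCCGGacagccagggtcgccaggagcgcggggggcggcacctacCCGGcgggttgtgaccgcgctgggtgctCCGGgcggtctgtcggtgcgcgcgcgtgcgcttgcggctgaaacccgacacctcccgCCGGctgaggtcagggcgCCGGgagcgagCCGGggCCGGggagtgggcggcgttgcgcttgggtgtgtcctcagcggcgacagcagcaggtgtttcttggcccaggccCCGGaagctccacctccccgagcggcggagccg

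The windows held 17, 23 and 37 CG dinucleotides, against a median of 13 over 21262 windows of 17491 coding genes in the RefSeq table. CCGG occurred 3, 3 and 8 times in them, and TCGA once, in the window of start 2. Of all those windows, 62.2% held a CCGG and 23.9% a TCGA. Listed sites were rare in such windows throughout the genome, with 38 windows (0.179%) in the placebo table and 30 (0.141%) in the SAMe table. A window without a listed site, as at Gse1, is the usual case. The listed site nearest to start 1 lay 1695 bases after it, and the one nearest to start 2 lay 2890 bases before it.

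The first comparison asked how Gse1 methylation in placebo-treated KO liver differed from WT. It listed 24 Gse1 sites, and all 24 were less methylated in the KO group, as were 99.4% of all sites in the authors' deposited table. The mean difference over these sites was −29.4 percentage points (SD 7.56 over sites, which are not replicates), with a median of −27.3 beside −25.9 over all 6721 sites in the authors' deposited table. The values ran from −44.4 to −20.3, and 4 of 24 sites (16.7%) differed by at least 40 points, against 9.27% of all listed sites. Most of these lie close together, at 120230441, 120230456 and 120230481, and are not independent measurements. The largest q-value among the 24 sites in the authors' deposited table was 0.000160, and 7 were listed as 0. Of the coding genes, 12.5% had a lower listed site in this table.

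The second comparison set SAMe-treated KO liver against WT. It listed 22 Gse1 sites, again all lower in the KO group, as were 99.0% of all sites in the authors' deposited table. Their mean difference was −29.6 percentage points (SD 8.07 over sites) and their median −27.4, beside −26.6 over all 5383 sites in the authors' deposited table. The values ran from −51.4 to −21.3. At least 40 points were reached at 3 sites (13.6%), against 10.8% of all listed sites. Of these, 120230456 and 120230481 lie close together and are not independent measurements. Of the coding genes, 10.7% had a lower listed site in this table. Both comparisons used the same WT animals, so that each WT level enters both.

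The third comparison, of placebo-treated with SAMe-treated KO liver, listed 0 sites in Gse1. That table was short, with 230 sites in all and a listed site in 0.658% of coding genes, so a gene without one is the usual case there. Its absence does not show that the 2 KO groups were alike at Gse1.

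**Figure D1:**
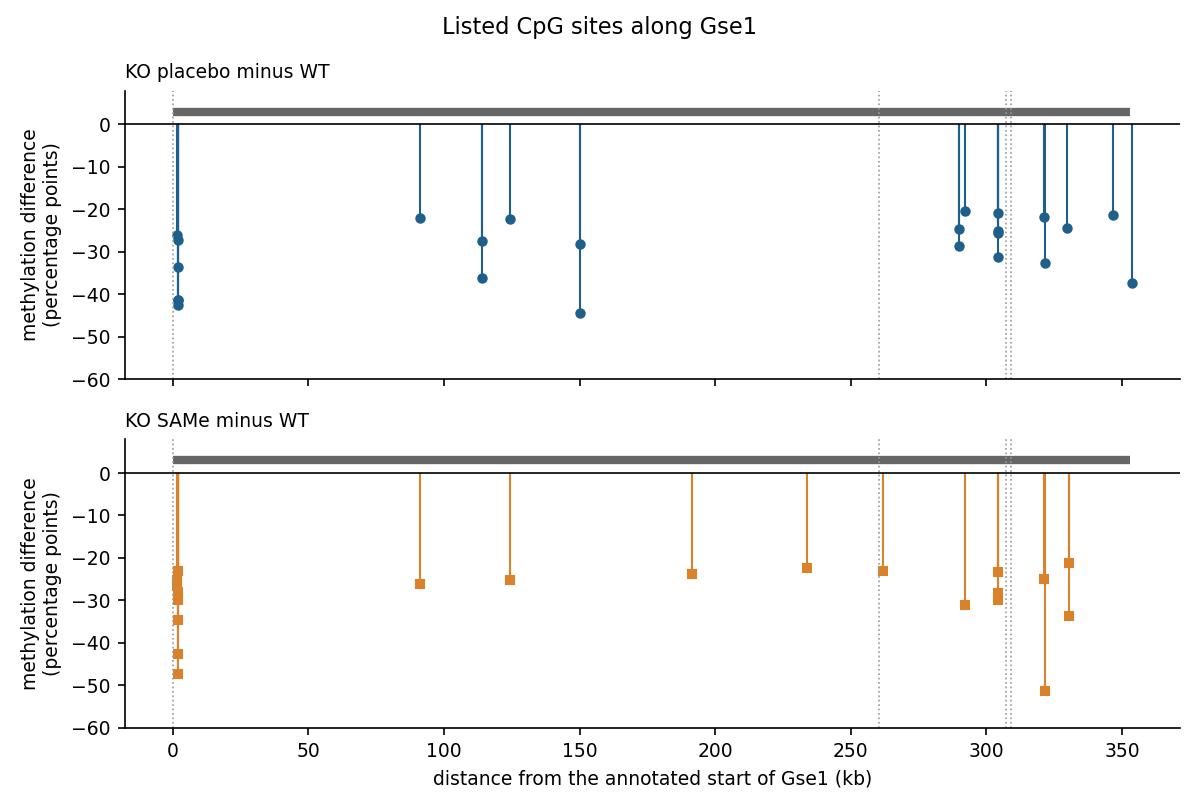
Methylation differences (percentage points) at the listed sites of Gse1 by distance from the annotated start in kb, for KO placebo minus WT (24 sites, upper) and KO SAMe minus WT (22 sites, lower). The grey bar is the gene and the dotted lines are its annotated start and the 3 RefSeq starts. All sites lie below 0, and the run with the most sites is close to the annotated start.

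The sites were spread along the gene. Joined at 1 kb, they formed 12 groups in the placebo table and 10 in the SAMe table, with 6 single sites in each table. Over both tables there were 16 such groups, of which 6 had sites in both tables, 6 in the placebo table alone and 4 in the SAMe table alone. The longest stretch with no placebo site ran over 139580 bp, from 120378641 to 120518221. In that stretch the SAMe table listed 3 single sites.

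The group with the most sites lay 1564 to 1980 bp after the annotated start of the gene (120230065 to 120230481, 417 bp). It held 10 sites, 6 listed for placebo and 9 for SAMe, with means of −35.3 and −31.9 percentage points in the authors' deposited tables. Only 5 sites were listed for both, so the 2 means cover different sites and cannot be compared. At the 3 positions 120230065, 120230224 and 120230448 the placebo differences were −26.0, −27.1 and −33.5, and the SAMe differences −25.2, −29.7 and −29.9, in the authors' deposited tables. The strongest differences of the group stood at its 3′ end. Position 120230456 was at −42.5 with placebo and −42.6 with SAMe, and position 120230481 at −41.4 and −47.4, in the authors' deposited tables. Sites up to 120230431 are on the minus strand, and 120230448, 120230456 and 120230481 on the plus strand.

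The remaining sites of this group were listed once each. Position 120230441 on the plus strand was listed for placebo alone at −41.4, and position 120230442 on the minus strand for SAMe alone at −23.1, in the authors' deposited tables. These are the 2 strands of 1 CpG, so the 10 sites stand for 9 CpGs. The SAMe table alone also gave −26.7 at 120230208, −34.5 at 120230419 and −28.1 at 120230431 in the authors' deposited table. Sites this close can be read on the same DNA fragments and are not independent measurements.

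**Figure D2:**
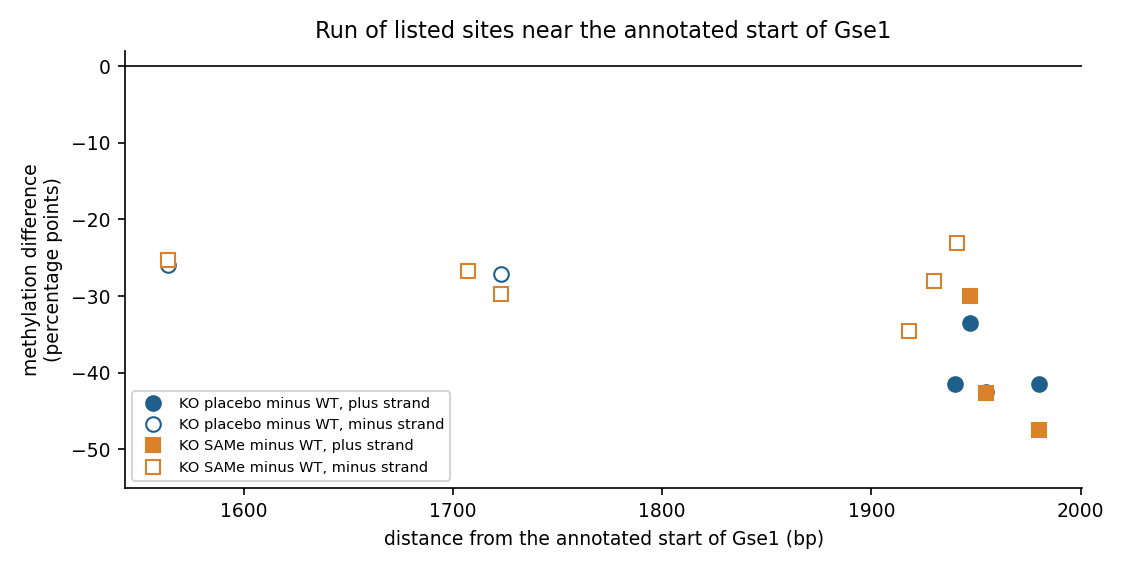
Methylation differences (percentage points) at the 10 listed sites that lie 1564 to 1980 bp after the annotated start of Gse1, by strand and comparison. Circles are KO placebo minus WT and squares KO SAMe minus WT, overlapping where the values nearly coincide; the lowest value is −47.4 on the plus strand.

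A second small group of 4 sites lay within 26 bp (120532942 to 120532967), 2890 to 2915 bp before start 2. Its placebo differences were −31.3, −20.9, −25.6 and −25.0 in the order of their positions, in the authors' deposited table. The SAMe differences were −29.9 at 120532942, −23.4 at 120532954 and −28.2 at 120532967 in the authors' deposited table, and 120532951 was not listed. At the 3 sites listed in both tables, SAMe minus placebo by subtraction ran from −3.20 to 2.19 points. All 4 sites are on the minus strand.

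Inside the body of the gene the pair at 120549931 and 120549969 held the lowest SAMe value of the locus. The first of the pair was at −21.8 with placebo and −25.0 with SAMe, and the second at −32.6 and −51.4, in the authors' deposited tables. Position 120520481 was at −20.3 with placebo, the smallest of the 24 placebo values, and at −31.0 with SAMe. The single sites 120319478 and 120352763 stood at −21.9 and −22.3 with placebo and at −26.1 and −25.2 with SAMe in the authors' deposited tables.

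Sites listed for placebo alone included the lowest placebo value of the locus, −44.4 at 120378626, beside −28.2 at 120378641, in the authors' deposited table. The pair 120342416 and 120342420, at −27.4 and −36.1 in the authors' deposited table, lies in Gse1 and also in the long noncoding RNA gene Gm39264. The pair 120518221 and 120518326 was at −28.6 and −24.7 in the authors' deposited table. Single sites at 120558057 and 120575316 were at −24.4 and −21.3 in the authors' deposited table. The last placebo site, 120582129 at −37.3, lies past the end of Gse1 and inside the neighbouring gene Gins2, whose RefSeq span overlaps the end of Gse1. It is the 1 of the 33 sites outside the gene itself, and the member nearest to the limit of the window, 1254 bp inside it.

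Sites listed for SAMe alone outside the first group were fewer and mostly smaller. Positions 120419986, 120462448 and 120490561 stood at −23.8, −22.3 and −23.1, and the pair 120559099 and 120559122 at −21.3 and −33.7, in the authors' deposited table. Position 120559099 was the smallest of the 22 SAMe values. The nearest listed sites outside the window were 120210193, 16308 bp before it (−21.4 with placebo, −27.3 with SAMe), and 120607843, 24460 bp after it (−30.5 with placebo alone), in the authors' deposited tables.

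In all, 13 sites stood in both WT tables, 54.2% of the placebo sites and 59.1% of the SAMe sites of Gse1, beside 55.2% and 68.9% over all listed sites. Another 11 stood in the placebo table alone and 9 in the SAMe table alone. Because the tables share their WT animals and list only sites past the thresholds, this is an account of the members and no measure of likeness. At the 26 sites that all 3 tables list, anywhere in the genome, the SAMe difference from WT less the placebo difference equalled the listed difference between the KO groups within 1e-06 points. The WT level therefore cancels on subtraction. At the 13 Gse1 sites the SAMe minus placebo value obtained this way averaged −3.38 points (SD 5.98 over sites), from −18.8 at 120549969 to 3.53 at 120230448. Over the 3707 sites of the genome in both WT tables it averaged −0.52 (SD 5.85). With the 2 strands of a CpG merged, 120230441 (placebo) and 120230442 (SAMe) join the shared sites, and the Gse1 mean becomes −1.83 over 14 CpGs. The whole of that shift comes from this pair. Its 2 values were read on opposite strands, so the WT level need not cancel between them. Counted by single site, the SAMe minus placebo value was under 5 points in size at 10 of the 13. It was over 10 at 2, 120549969 and 120520481 (−10.8). No spread between animals stands behind these values, and none of the 13 was listed by the authors between the KO groups.

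**Figure D3:**
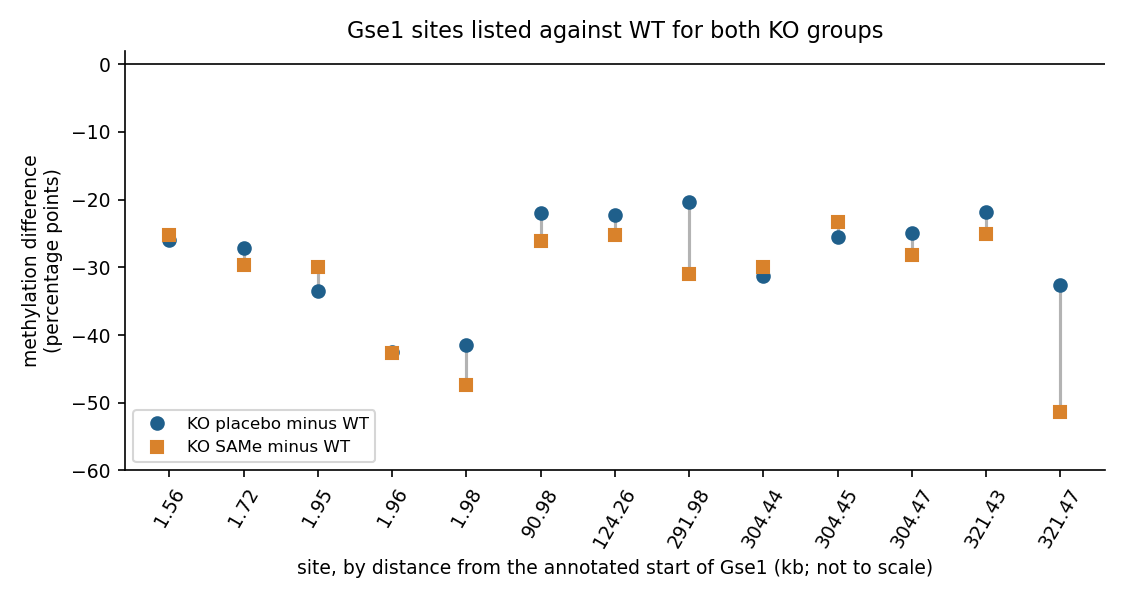
Methylation differences from WT (percentage points) at the 13 Gse1 sites listed for both KO groups, ordered along the gene and labelled by kb from its annotated start. Circles are KO placebo, squares KO SAMe and grey lines join the values of a site; the widest separation is at 321.47 kb (−32.6 and −51.4).

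By number of listed sites Gse1 ranked 4 of 21883 coding genes in both WT comparisons, which is the property it was picked for. Of the coding genes with a site, 56.1% (placebo table) and 58.5% (SAMe table) had a single one. Gse1 is a long gene. Per length it held 6.80 sites per 100 kb for placebo and 6.23 for SAMe. On that scale it ranked 26 of the 33 genes with at least 10 placebo sites and 19 of the 21 with at least 10 SAMe sites. The counts include the 2 kb flanks while the length is that of the gene alone. This raises the values of short genes most and can lower the rank of a long gene. Of 556 coding genes over 300 kb, 177 had a listed placebo site, and the next highest after Gse1 was Prkce with 18. Among SAMe sites the next was Prdm16 with 10.

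The genes whose site numbers over the 3 comparisons were most like those of Gse1 were Nfix, Fbrsl1, Zfp316, Prob1 and Gm20517. Likeness was the sum of the absolute differences in log2(sites + 1), which was 0.39 for Nfix, 0.61 for Fbrsl1, 0.68 for Zfp316, 0.74 for Prob1 and 1.33 for Gm20517. Nfix had 26 placebo and 27 SAMe sites, and Prob1 29 and 31. Their sites were laid out in fewer groups. All 20 placebo sites of Fbrsl1 lay within 744 bp, all 19 of Zfp316 within 2179 bp and all 29 of Prob1 within 1218 bp, while 22 of the 26 of Nfix formed 1 group. In Gse1 the largest group held 6 of 24 placebo sites, and the sites spanned 352.1 kb. Mean placebo differences were −38.4 in Nfix, −48.2 in Fbrsl1, −31.8 in Zfp316, −45.9 in Prob1 and −30.1 in Gm20517, against −29.4 in Gse1, in the authors' deposited table.

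**Figure D4:**
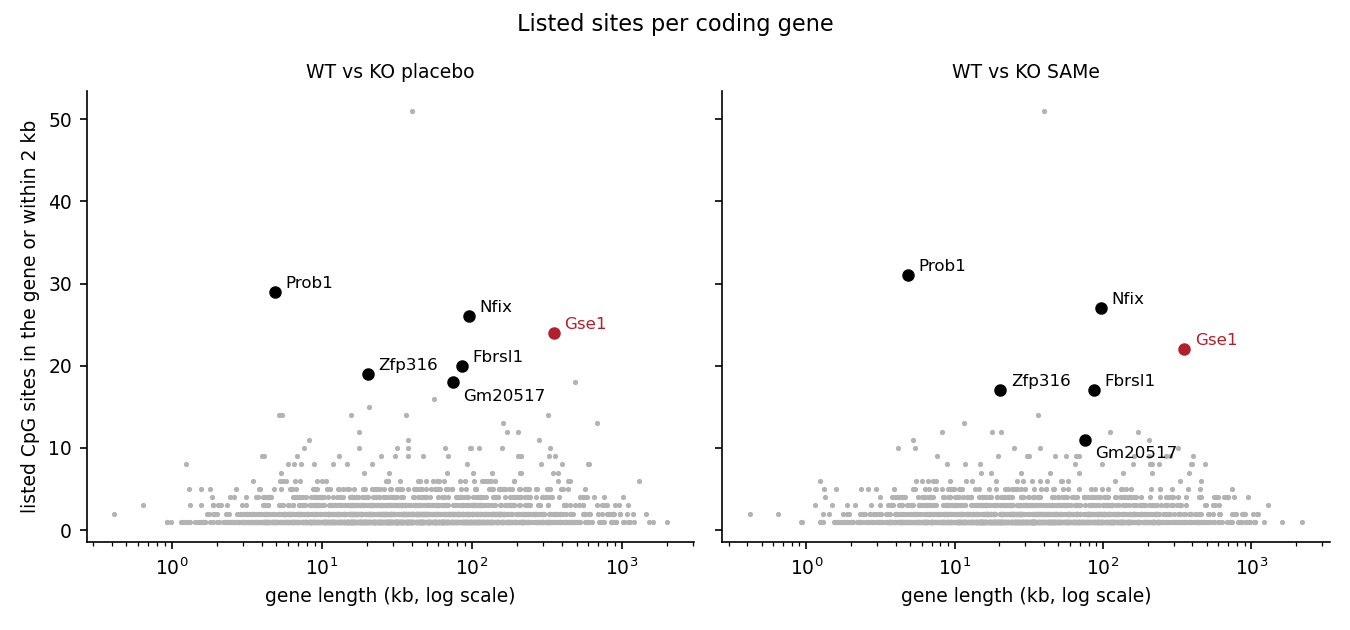
Listed sites per coding gene (2 kb flanks included) against gene length in kb on a log scale, for WT vs KO placebo (left) and WT vs KO SAMe (right), with genes without a site left out. Gse1 (red) holds 24 and 22 sites and is longer than the 5 genes most like it in site number (black).

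Around Gse1 the 5 nearest coding genes on each side held from 0 to 4 placebo sites each, and most held at least 1. Some of these genes share their sites with each other or with the Gse1 window, so they are not separate counts. Over all coding genes, 12.5% had a placebo site, with a median of 1 in those that had any. Before it, Crispld2 had 3 placebo sites with a mean of −30.7, and 1 site at −21.4 lay within 2 kb of both 6430548M08Rik and Cibar2, in the authors' deposited table. Usp10 and Zdhhc7 had 0. After it, Gins2, which encodes a subunit of the GINS replication complex, had the 1 placebo site it shares with the Gse1 window. Gm27021 and 1190005I06Rik overlap each other and shared 4 placebo sites (mean −24.4) and 1 SAMe site (−22.3) in the authors' deposited tables. Cox4i1, a subunit gene of cytochrome c oxidase, had 1 placebo site (−28.5 in the authors' deposited table) and Emc8 0. Among these 10 neighbours, SAMe sites were listed in Gm27021 and 1190005I06Rik alone, beside 10.8% of all coding genes.

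The genes of the complexes in which Gse1 takes part, and of the factors that recruit them, were read from a list of 26. A placebo site was listed in 7 of them (26.9%), against 12.5% of all coding genes, and a SAMe site in 3 (11.5%), against 10.8% with a site in either direction. Gene length was not matched in these comparisons. Without the 2 kb flanks the counts were 5 and 2, for which the share over all coding genes is not given. All sites of the list were lower in the KO group, like the 99.4% and 99.0% of all listed sites given above. Between the KO groups, 0 of 26 had a site. The median over their 10 placebo sites was −21.9 points, nearer to the threshold than the −25.9 of all listed sites in the authors' deposited table. Of the catalytic core, the deacetylase gene Hdac1 had 1 site, at −26.5 with placebo and −21.9 with SAMe in the authors' deposited tables. Hdac2, the demethylase gene Kdm1a and the scaffold gene Rcor1 had 0.

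Zmym2, a zinc-finger member of these complexes, had the largest difference of the list, −45.7 with placebo and −45.8 with SAMe at chromosome 14 position 56884544 in the authors' deposited tables. Phf21a, which encodes a reader of unmodified histone H3, was at −21.3, and the zinc-finger gene Zfp217 had 2 sites at −22.4 and −20.1 with placebo in the authors' deposited table. Among the DNA-binding factors, Rreb1 had 3 placebo sites from −27.4 to −20.1, and Rest, the repressor of neuronal genes outside neurons, had 1 at −22.9 in the authors' deposited table. Zeb1 was listed for placebo alone at −21.4 and its relative Zeb2 for SAMe alone at −21.7, in the authors' deposited tables. Apart from Zmym2, Hdac1 and 1 site of Rreb1, the values of the list lay within 3 points of the threshold of 20.

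Whole liver was used, so a lower methylation level per cell and a changed share of cell types cannot be told apart. Of the marker genes of single cell types, placebo sites were listed in 0 of 6 hepatocyte, 1 of 7 immune cell, 2 of 5 endothelial, 2 of 6 stellate or fibroblast and 1 of 5 cholangiocyte genes, beside 12.5% of all coding genes. For SAMe sites the counts were 0, 1, 1, 3 and 1, beside 10.8% of all coding genes. All of these sites were lower in the KO group, as nearly all listed sites were. Their part in the Gse1 differences was not tested.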

How the data were processed

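Reduced-representation bisulfite libraries of liver DNA from 8 WT, 6 KO placebo and 5 KO SAMe mice were compared by the authors. CASAVA 1.8.2, Trim Galore, Bismark, methylKit and mm10 are the tools and build per the submitters' processing notes, without their order or parameters. The deposited p-values and q-values belong to the authors' own comparisons, whose test the labels do not state. The other deposited quantity is a methylation difference in percentage points, at least 20 in size at every listed site.

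Sites were assigned to 21883 nuclear protein-coding genes of the RefSeq table (GRCm38.p6) with 2 kb on each side, and joined into groups at 1 kb, with Python 3.11.15 and pandas 2.3.3. Site counting was tested on simulated data (200 of 200 genes recovered). No test was run, since no values per animal are given. Named were Gse1, genes of the complex list with a site and Kdm1a, Hdac1, Hdac2 and Rcor1, the 5 nearest coding genes on each side and the 5 most alike in site number. Among the Gse1 sites, the rule took the extremes, the ends of groups and any site between the KO groups; the other sites were added after their values were seen, as were Prkce and Prdm16. The members and lists were chosen with earlier results of these data known. All 55 genes of the complex and marker lists matched. Alternatives changed the flank, the thresholds, the joining distance and the treatment of the 2 strands of a CpG.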

Additional observations from a re-analysis of the deposited data

How the results depend on the processing

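Of the 67 recomputed values, 62 kept their direction and stayed within the limit used (1.5 times for a count or rank, 1 SD over sites for a mean) and 5 moved, all of them at a stricter threshold of 25 percentage points. There Gse1 had 15 placebo sites in 7 groups and 7 sites in both WT tables. The list of complex genes had 3 genes with a placebo site and 1 with a SAMe site. The share over all coding genes at that threshold is not given, so these 2 gene counts cannot be read as a result about the list. Fewer sites enter by construction at that threshold. Some of the 62 values could not have moved. Counts of 0 between the KO groups must stay 0 without flanks or at stricter thresholds. At a stricter q-value of 0.001 the Gse1 placebo count and mean cannot change, since the largest q-value of those sites was 0.000160. The mean SAMe minus placebo value, −3.38, became −1.83 with the strands of a CpG merged, a shift within 1 SD over sites but over 1.5 times. That shift came from 1 pair of values on opposite strands, between which the WT level need not cancel. The authors' listing sets which sites can be seen, depth is unknown, and no animal could be left out. No paired analysis was possible because the tables hold no values per animal and no label ties an animal of one group to one of another.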
